A study of Mus musculus with 21 samples.

Results

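Interferon-stimulated genes are the genes that cells switch on when interferons, the cytokines of antiviral defence, bind their receptors. A list of 38 such mouse genes was followed here across 21 arrays of mouse small-intestinal organoids. Members were matched by gene symbol, and each gene was represented by the probe with the highest mean Cy3 signal among the probes of that symbol. Of the 38 genes, 37 had a probe and Ifi27 had none under that name. The probes of Oas1g, an oligoadenylate synthetase, and Gbp3, a guanylate-binding GTPase, were well above background on 0 arrays and were not tested. The remaining 35 were tested among 21320 genes, and 26 of these 35 were well above background on all 21 arrays.

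The organoids were grown from small-intestinal crypts in Matrigel with EGF, Noggin and R-spondin 1. They carried a doxycycline-inducible, N-terminally truncated and myc-tagged human beta-catenin under Tet-O control (Tet-O-ΔN89-beta-catenin), with M2-rtTA driven by the endogenous ROSA26 promoter. These alleles came through KH2 embryonic stem cells and chimeras crossed to C57/Bl6-J, and every group carried them. All cultures were first grown with doxycycline. Compound 6 at 2 µM for 24 hours with doxycycline (n = 4, lettered D to G), compound 2 at 2 µM for 24 hours with doxycycline (n = 3, A to C), compound 9 at 2 µM for 24 hours with doxycycline (n = 3, A to C) and removal of doxycycline for 24 hours (n = 4, D to G) were set against vehicle with doxycycline for 24 hours (n = 7, A to G). The 3 compounds, which inhibit the Mediator-associated kinases CDK8 and CDK19, are related members of 1 trisubstituted pyridine series. The comparison asked how kinase inhibition and loss of the mutant beta-catenin each changed expression. Whether the arrays of a group came from separate cultures or animals is not given, so each p-value reflects the spread of these samples alone, which may be technical.

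Type I and type III interferon receptors signal through the kinases Jak1 and Tyk2 to a complex that holds Stat2 and Irf9 and binds the interferon-stimulated response element, ISRE. Interferon gamma signals through Jak1 and Jak2 to factors that bind the gamma-activated site, GAS. In the intestine the epithelium is the main target of type III interferon, and its interferon response restricts enteric viruses. The 38 genes fall into transcription factors of the response (Irf1, Irf7, Irf9, Stat2), sensors of foreign nucleic acid (Ddx58, Ifih1, Dhx58, Ddx60, Zbp1), antiviral effectors (the Ifit, Oas and Mx genes, Rsad2, Bst2, Ifi27, Ifi35, Ifi44), the ubiquitin-like modifier Isg15 with its protease Usp18, the ADP-ribosylation and ubiquitin-ligase genes Parp9, Parp14 and Dtx3l with Xaf1, the GTPases Gbp2, Gbp3, Igtp, Irgm1 and Iigp1, and the chemokine Cxcl10 with the peptide transporter Tap1.

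The promoters of 7 members are shown because these genes carry the results below and hold at least 1 match to the motifs these pathways use. Each runs 5′ to 3′ from 250 bases before to 50 bases after the annotated start, in RefSeq's GRCm38.p6 sequence. Capitals mark every match to the ISRE core, searched as GAAANNGAAA on either strand with overlapping copies counted, and to the GAS, searched as TTCNNNGAA, which reads the same on both strands. Where both motifs or 2 copies overlap, the capitals run together. Positions count from the start base as 0.
Ddx58 (RIG-I, a sensor of viral RNA), chr4:40239776-40240075, minus strand: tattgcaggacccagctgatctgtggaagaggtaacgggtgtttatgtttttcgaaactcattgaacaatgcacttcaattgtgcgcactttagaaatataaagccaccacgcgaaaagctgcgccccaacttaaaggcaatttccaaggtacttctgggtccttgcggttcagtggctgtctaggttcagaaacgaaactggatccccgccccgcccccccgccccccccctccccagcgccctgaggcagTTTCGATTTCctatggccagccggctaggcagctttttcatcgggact
Bst2 (tetherin, which holds budding virus at the cell surface), chr8:71537423-71537722, minus strand: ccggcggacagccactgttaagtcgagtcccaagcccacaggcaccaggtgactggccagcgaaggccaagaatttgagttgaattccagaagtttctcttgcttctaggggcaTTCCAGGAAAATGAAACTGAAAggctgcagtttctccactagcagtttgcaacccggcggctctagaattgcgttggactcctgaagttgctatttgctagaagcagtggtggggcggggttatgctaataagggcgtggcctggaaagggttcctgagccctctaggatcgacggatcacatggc
Oas1a (an oligoadenylate synthetase), chr5:120907476-120907775, minus strand: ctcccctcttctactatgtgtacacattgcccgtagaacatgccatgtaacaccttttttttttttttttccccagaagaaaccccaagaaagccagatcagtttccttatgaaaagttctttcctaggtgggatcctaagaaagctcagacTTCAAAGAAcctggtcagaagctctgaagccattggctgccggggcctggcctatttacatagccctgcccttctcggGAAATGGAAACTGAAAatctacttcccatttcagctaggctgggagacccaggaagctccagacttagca
Irf1 (a transcription factor, 1 of its 2 listed starts), chr11:53769764-53770063, plus strand: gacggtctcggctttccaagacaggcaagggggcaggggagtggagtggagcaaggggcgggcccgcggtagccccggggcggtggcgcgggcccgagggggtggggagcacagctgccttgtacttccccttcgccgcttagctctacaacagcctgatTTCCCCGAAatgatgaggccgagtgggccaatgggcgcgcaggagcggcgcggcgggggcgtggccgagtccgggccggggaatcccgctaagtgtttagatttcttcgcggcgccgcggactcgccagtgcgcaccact
Ifi35 (a cytosolic interferon-induced protein), chr11:101448162-101448461, plus strand: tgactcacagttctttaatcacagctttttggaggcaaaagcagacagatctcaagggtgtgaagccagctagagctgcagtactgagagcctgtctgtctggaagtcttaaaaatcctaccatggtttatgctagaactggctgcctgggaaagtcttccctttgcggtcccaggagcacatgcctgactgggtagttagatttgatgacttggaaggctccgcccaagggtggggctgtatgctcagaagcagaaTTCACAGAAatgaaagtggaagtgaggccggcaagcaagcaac
Ifit1 (which binds viral RNA), chr19:34640639-34640938, plus strand: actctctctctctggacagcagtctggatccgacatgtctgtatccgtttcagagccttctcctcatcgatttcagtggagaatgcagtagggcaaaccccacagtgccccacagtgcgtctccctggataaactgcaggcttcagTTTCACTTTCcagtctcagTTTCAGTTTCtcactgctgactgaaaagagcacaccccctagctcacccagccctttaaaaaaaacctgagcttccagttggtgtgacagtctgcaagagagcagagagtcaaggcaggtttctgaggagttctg
Cxcl10 (a T cell chemokine), chr5:92348840-92349139, minus strand: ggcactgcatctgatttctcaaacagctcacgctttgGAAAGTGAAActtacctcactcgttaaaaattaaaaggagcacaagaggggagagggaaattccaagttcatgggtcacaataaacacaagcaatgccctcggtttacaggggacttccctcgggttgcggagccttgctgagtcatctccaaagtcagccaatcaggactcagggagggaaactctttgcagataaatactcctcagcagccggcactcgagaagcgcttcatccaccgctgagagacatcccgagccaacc

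The RefSeq promoter table held 28 of the 38 members. Parp14, Mx1, Parp9, Iigp1 and Mx2 were not among them. These 28 genes had 32 promoters, of which 17 (53.1%) held an ISRE core, against 3.44% of all 32851 promoters in the table, and 6 (18.8%) held a GAS, against 8.3%. By gene, 17 of 28 held the core and 6 of 28 the GAS. Bst2, Oas1a and Igtp held both, and 8 members held neither. In the Bst2 promoter above, the GAS at -136 to -128 ran into overlapping ISRE cores at -130 to -121 and -124 to -115. In the Oas1a promoter the ISRE cores lay at -20 to -11 and -14 to -5, next to the start, with a GAS at -98 to -90. Ddx58 held 1 ISRE core just past its start, at +2 to +11, Ifit1 held ISRE cores at -104 to -95 and -85 to -76, and Cxcl10 held one at -213 to -204. The Irf1 start shown held a GAS at -90 to -82 and Ifi35 one at +7 to +15. These are matches of letters in a fixed window, not measured binding.

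**Figure D1:**
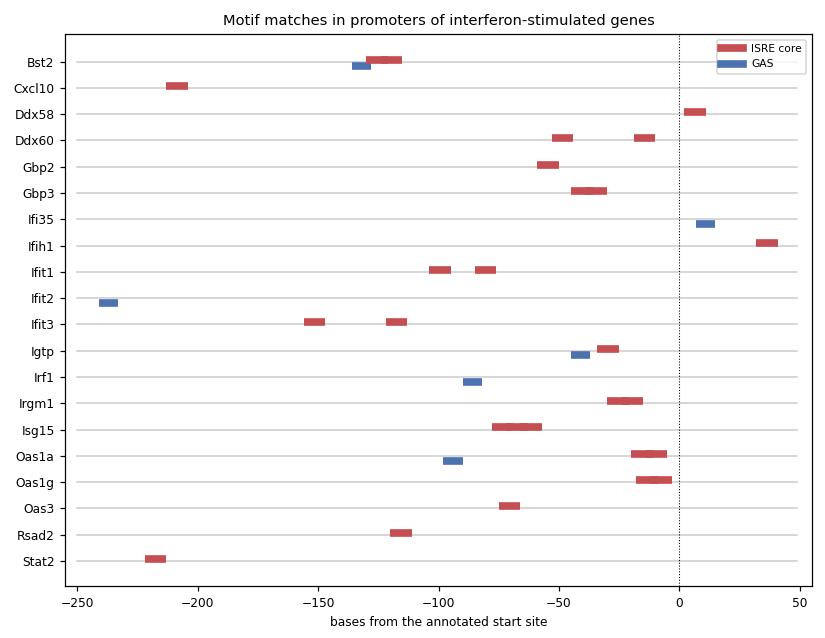
Positions of ISRE core matches (red) and GAS matches (blue) in the promoters of the 20 members that hold at least 1, in bases from the annotated start, over a window from 250 before to 50 after it. Most ISRE cores lie before the start, while those of Ddx58 and Ifih1 lie after it.

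Each array measured the organoid RNA in Cy3 against Universal Mouse Reference RNA in Cy5. Levels below are log2 of sample over reference after background correction and loess within each array, so a negative level means less RNA than in the reference. Between 42.58% and 51.91% of spots per array were well above background in Cy3, and no spot was saturated. The number of arrays limits the precision. Arrays A to C shared 1 combination of scan day and scanner and arrays D to G another, and no slide held both letter sets. Letter set, slide and scan thus cannot be told apart. All 12 epithelial markers, Epcam and Vil1 among them, were well above background on all 21 arrays. Of 21 leukocyte markers, 11 to 12 were well above background on every array of a group and 5 to 9 on none, and Cd8a, Cd8b1, Itgae and Gzmb were among those so on 0 arrays. The probes that carry the results lie, in mm9, at chr4:40151893-40151952 (Ddx58), chr16:35832992-35833051 (Parp14), chr16:97668644-97668703 (Mx1), chr16:97782327-97782386 (Mx2), chr5:121346735-121346794 (Oas1a), chr11:53590746-53590805 (Irf1), chr11:101319011-101319070 (Ifi35), chr8:74058603-74058662 (Bst2), chr19:34723796-34723855 (Ifit1) and chr5:92775781-92775840 (Cxcl10). In RNA from whole organoids, fewer cells of a type and less RNA per cell cannot be told apart.

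Changes were tested with limma on all 21 arrays with a term for the letter set, and a gene passed at a Benjamini-Hochberg adjusted p under 0.05 over all 21320 genes. Arrays that share a letter deviated from their group means together, so the count with the letter as a replicate block is given as well. Compound 6 and doxycycline removal share vehicle arrays D to G, and compounds 2 and 9 share vehicle arrays A to C, so comparisons within each pair are not independent of each other.

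**Figure D2:**
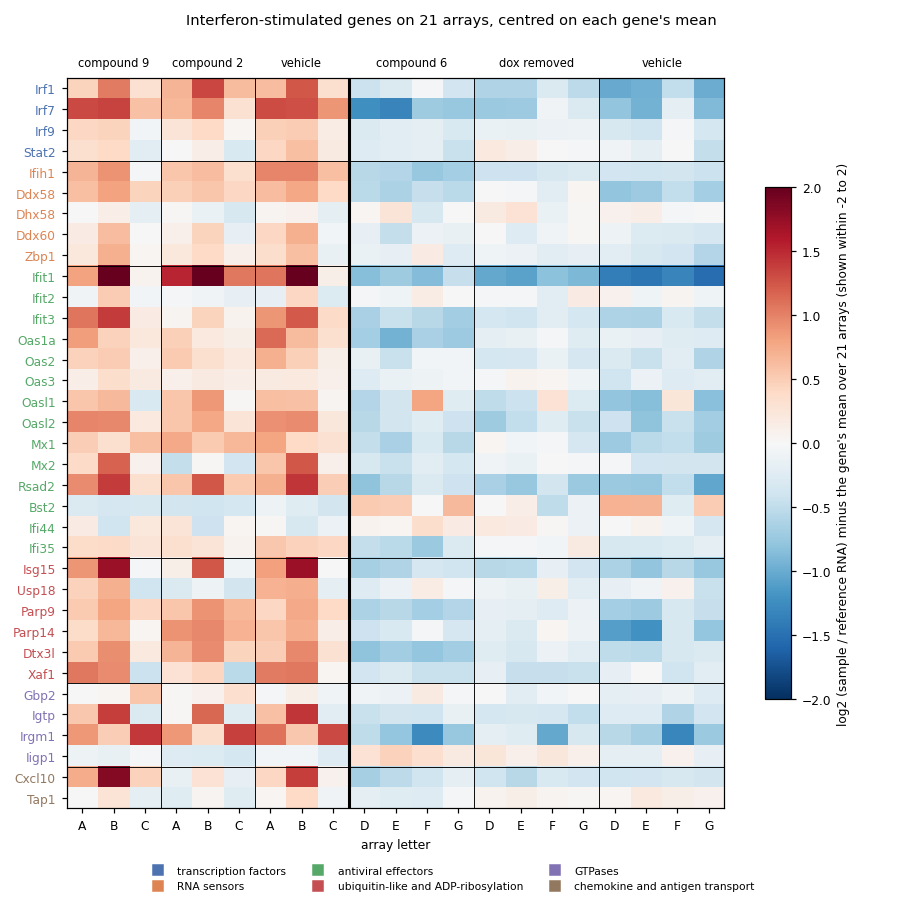
Heat map of the 35 tested genes (rows, by role) on the 21 arrays (columns, compound 9, compound 2 and vehicle A to C, then compound 6, doxycycline removed and vehicle D to G). Colour is log2 sample over reference minus the gene's mean over all 21 arrays, limited to -2 and 2. The A to C columns are redder than the D to G columns for most genes, and column C is paler than A and B.

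The first feature of the levels was the split between letter sets, which was present in the vehicle arrays. Of the 35 members, 28 were higher and 1 was lower in vehicle A to C than in vehicle D to G, and 6 did not pass. Among all genes, 25% were higher and 28.4% lower, so the members leaned one way where the genes at large did not. Higher genes made up 46.8% of all genes that passed, and 57.7% in the series matrix. Of the 35, 6 were dim in letters D to G and passed the filter on low signal through letters A to C, so a difference was favoured for them. Without these 6, 25 of 29 members were higher and 1 was lower. The median difference was 0.92 over the 35 members, 0.97 over the 29 and -0.004 over all genes, and 13 members differed by at least 2-fold. All 4 transcription factors and all 6 genes of the ubiquitin-like and ADP-ribosylation group were higher, as were 4 of 5 sensors, 11 of 14 effectors (1 was lower), 2 of 4 GTPases and 1 of the 2 chemokine and antigen-transport genes. The count was the same 29 with the slide as a random block. No slide held arrays of both letter sets, so this fit cannot separate slide from letter set. Cell-type markers also differed between the vehicle sets: of those tested, 2 of 12 epithelial markers were higher and 6 lower in A to C, 3 of 15 leukocyte markers higher and 2 lower, 2 of 8 fibroblast markers higher and 2 lower, and 2 of 4 endothelial markers higher and 1 lower. The summed Cy3 signal of the leukocyte markers was 31162 to 36417 in vehicle A to C, against 27907 to 53286 in vehicle D to G. Their part in the set difference was not tested.

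Ifit1 lay at 0.57, 1.79 and -0.38 in vehicle A to C, against -1.87, -1.95, -1.82 and -2.01 in vehicle D to G. The sets did not overlap, although Ifit1 was well above background on 2 of the 4 vehicle D to G arrays. The difference was 2.57 ± 0.49 on the log2 scale (SE, limma adjusted p = 0.00026), and it ran from 2.01 to 4.40 over the alternatives. Irf7, the factor that amplifies type I interferon production, lay at 1.84, 1.81 and 1.41 in vehicle A to C, against -0.27, -0.42, 0.33 and -0.35 in vehicle D to G. Its difference was 1.86 ± 0.24 (adjusted p = 4.296e-06), again with no overlap. Irgm1, a GTPase of vacuolar defence and autophagy, was 1.80 ± 0.28 higher in A to C, Irf1 1.59 ± 0.22, Isg15 1.53 ± 0.37, Ifit3 1.34 ± 0.21 and Parp14, a mono-ADP-ribosyltransferase, 1.33 ± 0.19. Rsad2 (viperin) was also higher, but it was well above background on 1 of the 4 vehicle D to G arrays, and its size ran from 1.36 to 4.57 over the alternatives. Cxcl10 and Ddx60 were not well above background on any of those 4, and were at least 1.89-fold and at least 1.15-fold higher in A to C. Bst2 was the member lower in A to C, at -3.23, -3.39 and -3.50 against -2.45, -2.46, -3.38 and -2.62 in D to G, where array F overlapped the A to C values (-0.64 ± 0.19, adjusted p = 0.0086). Gbp2 (0.18), Tap1 (0.02), Ifit2 (0.00), Iigp1 (-0.02), Ifi44 (-0.05) and Dhx58 (-0.06) did not pass, and Gbp2, Ifit2 and Ifi44 were not well above background on any D to G array.

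Other probes of the same gene did not always give the same size. For Irgm1 the other probe gave 1.18, for Ddx58 0.79 where the brightest gave 1.27, and for Isg15 0.67. For Xaf1 the other probe gave -0.23 where the brightest gave 0.91, and for Zbp1 -0.11 where the brightest gave 0.65. For Dtx3l the other probes gave 0.10 and 0.18, where the brightest gave 1.00. For Parp9 a second probe gave 0.29 where the brightest gave 1.07, for Ifih1 0.48 where it gave 1.25, and for Oas1a 0.35 where it gave 0.90. Dim second probes of Irf1 and Cxcl10 gave 0.03 and 0.07. The size of the set difference, and for Xaf1 and Zbp1 its direction, thus depended on the probe.

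**Figure D3:**
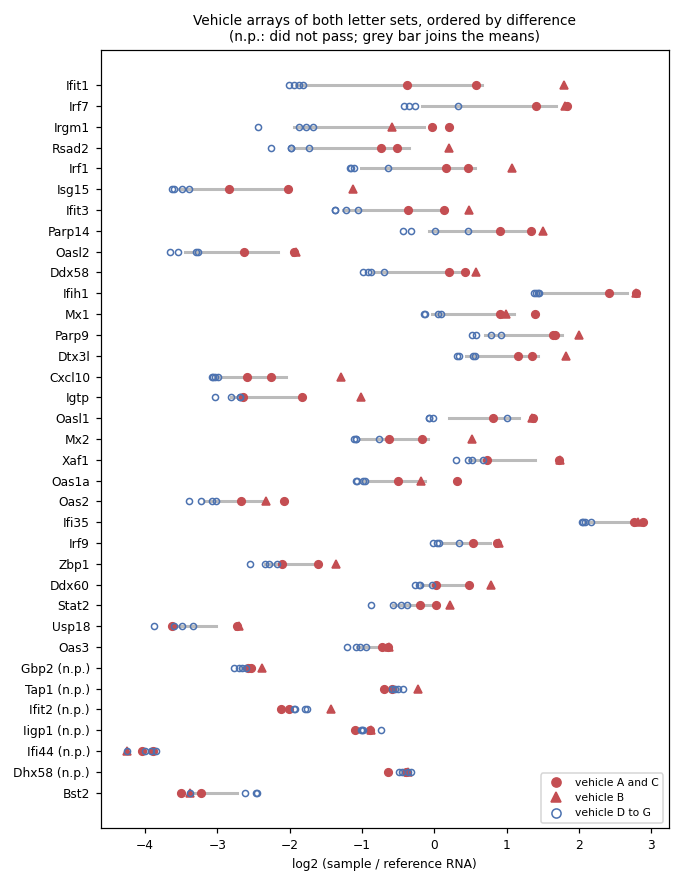
Level (log2 sample over reference, horizontal axis) of each tested member on the 3 vehicle arrays A to C (red, array B as a triangle) and the 4 vehicle arrays D to G (open blue circles), ordered by the difference of the set means, with n.p. beside members that did not pass. Members from Ifit1 (difference 2.57) to Bst2 (-0.64) are shown, and for most of them the red points lie to the right of the blue.

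The members also differed within the A to C set. Vehicle C was the lowest of the 3 vehicle arrays for 33 of the 35 members and vehicle B the highest for 25. All C arrays were on 1 slide and all A and B arrays on another, so letter C and slide cannot be told apart. The median level over members was -0.25 on compound 9 A, 0.01 on B and -0.61 on C, and -0.43 on compound 2 A, -0.57 on B and -0.69 on C, against -0.03 on vehicle A, 0.21 on B and -0.51 on C. The median SD of a member within a group was 0.34 for compound 9, 0.20 for compound 2 and 0.31 for vehicle A to C, where all genes had 0.12, 0.11 and 0.12. In the D to G set the members spread about as much as genes at large, with a median SD of 0.14 for compound 6, 0.12 for doxycycline removal and 0.16 for vehicle D to G, against 0.14, 0.12 and 0.15 over all genes. Ifit1 had the highest SD of the members in each A to C group, at 1.25 for compound 9, 0.99 for compound 2 and 1.09 for vehicle. The fit shares 1 spread per gene over all groups, so a gene that varied in A to C also has a wide error in the D to G comparisons.

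After removal of doxycycline, which ends induction of the mutant beta-catenin, 7 members rose and 1 fell against vehicle D to G, and 27 did not pass. The 7 were the sensor Ddx58, the ADP-ribosylation genes Parp14 and Parp9, the effectors Mx1, Ifi35 and Oas3, and the GTPase Iigp1, which acts on pathogen vacuoles, and the one that fell was Bst2. None of the 4 transcription factors passed. Of the members 20% rose and 2.86% fell, where 7.27% of all genes rose and 13.4% fell. Genes that rose made up 35.1% of all genes that passed, and 46.1% to 47.1% under 3 other scalings of the arrays. The median change was 0.18 over the members, with 29 above 0 and 6 below, and -0.01 over all genes. With the letter as a block, 15 members were higher and 1 was lower, beside 15.3% and 23.8% of all genes.

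Ddx58 lay at -0.19, -0.24, -0.42 and -0.16 after removal (D to G), against -0.99, -0.92, -0.69 and -0.87 on vehicle. The groups did not overlap, and the gene rose 1.53-fold (0.62 ± 0.09, limma adjusted p = 0.00037). Its second probe gave 0.18, a smaller change. Parp14 lay at 0.58, 0.50, 0.82 and 0.67 after removal, against -0.33, -0.44, 0.46 and 0.01 on vehicle. It rose on all 4 letters with no overlap, although vehicle F stood well above the other vehicle arrays, and the change was 1.64-fold (0.72 ± 0.17, adjusted p = 0.0072). Mx1, an interferon-induced GTPase gene, lay at 0.63, 0.53, 0.55 and 0.26 after removal, against -0.14, 0.05, 0.10 and -0.12 on vehicle (0.52 ± 0.11, adjusted p = 0.0033). These 3 calls held in every alternative tried, while the sizes ran from 0.40 to 0.73 for Ddx58, 0.60 to 0.90 for Parp14 and 0.48 to 1.26 for Mx1.

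The other 4 genes that rose did so by less. Ifi35 lay at 2.32, 2.33, 2.30 and 2.53 after removal, against 2.04, 2.05, 2.08 and 2.17 on vehicle (0.29 ± 0.09, adjusted p = 0.023). Iigp1 lay at -0.59, -0.72, -0.61 and -0.72 after removal, against -1.01, -1.01, -0.74 and -0.99 on vehicle (0.28 ± 0.08, adjusted p = 0.015). Parp9, which works with the ubiquitin ligase Dtx3l, rose by 0.36 ± 0.11 (adjusted p = 0.020) and Oas3 by 0.25 ± 0.07 (adjusted p = 0.018), although Oas3 was well above background on 1 of the 4 vehicle arrays and its size ran from 0.20 to 0.88 over the alternatives. That of Iigp1 ran from 0.21 to 0.53. In these 4 genes every array after removal was above every vehicle array, but the calls were close to the threshold. Adjusted p was 0.0843, 0.0668 and 0.0678 for Ifi35 without removal G, vehicle D or vehicle E, 0.0561, 0.074 and 0.0869 for Parp9 without the same arrays, 0.0539 and 0.0571 for Iigp1 without vehicle D or E, and 0.0505, 0.0534 and 0.0778 for Oas3 without removal E, removal F or vehicle D. The second probe of Parp9 gave -0.02. That of Iigp1 also gave -0.02, but it was not well above background on 3 or more arrays. Leaving out single arrays took the number of members that passed from 8 to 5 without removal G, 3 without vehicle D and 4 without vehicle E.

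Bst2 lay at -3.15, -3.00, -3.64 and -3.26 after removal, against -2.45, -2.46, -3.38 and -2.62 on vehicle. It was lower on all 4 letters, by 0.53 ± 0.18 on the log2 scale (adjusted p = 0.039, and 0.0001 with the letter as a block), while array F was the lowest in both groups and the groups overlapped. The call was lost without any of removal D, F or G or vehicle D, E or G (adjusted p 0.0531 to 0.142). Its promoter holds both motifs, as shown above, as does that of Oas1a, which lay at -1.01, -0.98, -0.85 and -1.07 after removal, against -0.96, -0.99, -1.07 and -1.09 on vehicle. The Oas1a ranges overlapped.

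Among members that did not pass, Ifit1 showed the largest difference after removal, at -1.53, -1.56, -1.31 and -1.40 against -1.87, -1.95, -1.82 and -2.01 on vehicle. The groups did not overlap, though Ifit1 was well above background on 2 of the 4 vehicle arrays. Its difference of 0.46 ± 0.46 (adjusted p = 0.51) carried the wide error of the A to C arrays and passed with the letter as a block (adjusted p = 0.0020). Irgm1 (0.38), Irf1 (0.36) and Oasl1 (0.33) likewise passed with the block and not without it (adjusted p without it 0.32, 0.21 and 0.49), as did Isg15 (0.27), Irf7 (0.25), Stat2 (0.25) and Dtx3l (0.19). Oasl1, Irf1 and Ifi35 had the brightest probes of the list as scanned. Oasl1, which restrains Irf7 production in mice, lay at 0.26, 0.34, 1.05 and 0.49 after removal, against -0.03, -0.08, 1.01 and -0.08 on vehicle. Array F was high in both groups.

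The slides that held both groups gave the same direction. The median difference over the 35 members was 0.18 on the slide with 3 removal arrays and 1 vehicle array, and 0.12 on the slide with 1 and 2. Ddx58 differed by 0.64 and 0.68 on these slides, Parp14 by 1.07 and 0.61, Iigp1 by 0.37 and 0.15, and Bst2 by -0.80 and -0.35. Of 15 tested leukocyte markers, Itgam rose (0.29), and the summed Cy3 signal of the 21 markers ranged from 41933 to 51997 after removal, against 27907 to 53286 on vehicle D to G. Of 12 epithelial markers 1 rose and 3 fell, of 4 endothelial markers 1 rose, and of 8 fibroblast markers 0 passed. The part of these markers' cells in the changes was not tested.

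**Figure D4:**
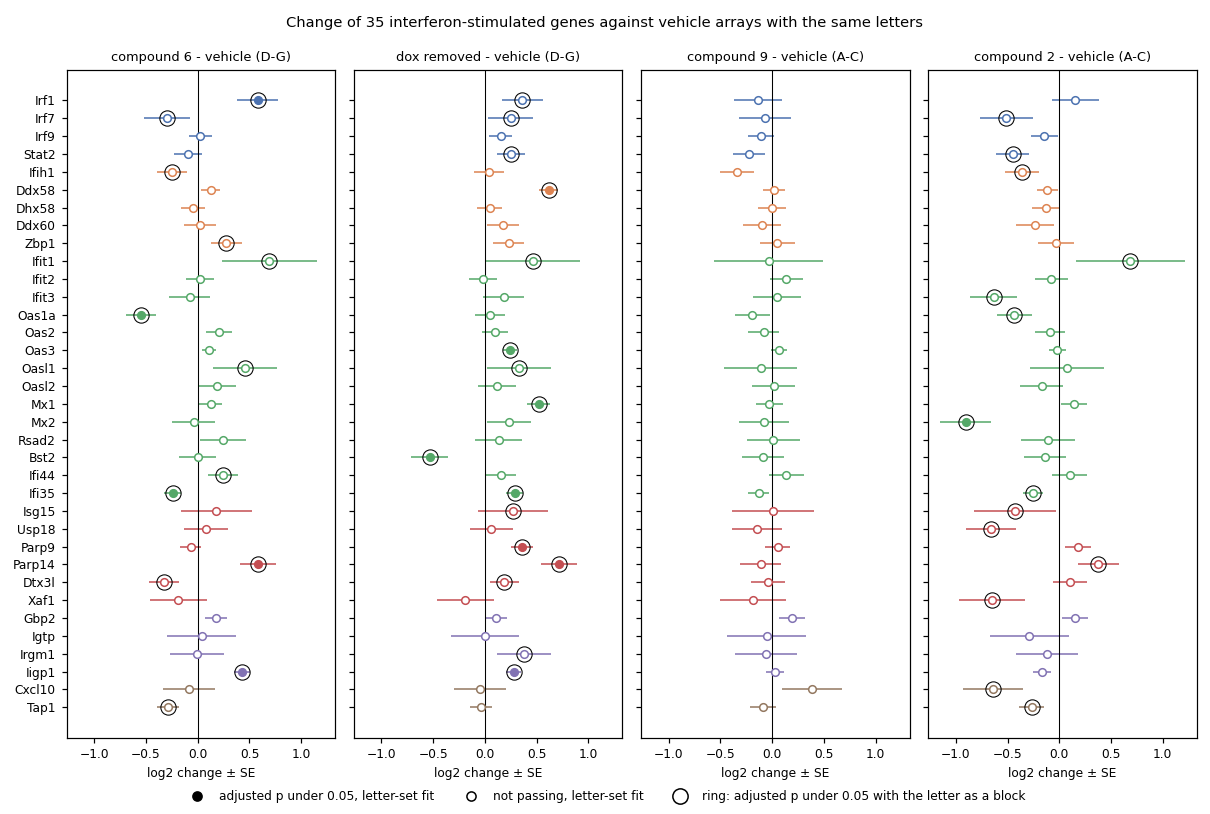
Log2 change ± SE of each tested member against vehicle arrays with the same letters, in a panel each for compound 6 (n = 4 against 4), doxycycline removed (4 against 4), compound 9 (3 against 3) and compound 2 (3 against 3). Filled points passed at adjusted p under 0.05 with the letter-set term, and ringed points passed with the letter as a block. Filled points number 5, 8, 0 and 1 in that order.

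Under compound 6 the members moved in both directions. Parp14, the transcription factor Irf1 and Iigp1 rose, Oas1a and Ifi35 fell, and 30 did not pass. Of the members 8.57% rose and 5.71% fell, below the 11.4% and 13.5% of all genes. The median change was 0.02 over the members, with 21 above 0 and 14 below, and -0.035 over all genes. With the letter as a block 7 members were higher and 6 lower, beside 17.5% and 23.9% of all genes.

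Iigp1 lay at -0.53, -0.37, -0.49 and -0.65 under compound 6, against -1.01, -1.01, -0.74 and -0.99 on vehicle D to G. The groups did not overlap and the gene rose 1.35-fold (0.43 ± 0.08, limma adjusted p = 0.00055). A second probe, which was not well above background on 3 or more arrays, gave 0.00. Oas1a lay at -1.51, -1.77, -1.48 and -1.55 under compound 6, against -0.96, -0.99, -1.07 and -1.09 on vehicle. It fell 1.46-fold with no overlap (-0.55 ± 0.14, adjusted p = 0.0094), and its second probe gave -0.39. The brightest Oas1a probe is annotated to transcripts of both Oas1a and Oas1g, so the change cannot be assigned to Oas1a alone. Both calls held in every alternative tried, with sizes of 0.31 to 0.71 for Iigp1 and -0.60 to -0.47 for Oas1a.

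Irf1, whose protein drives part of the interferon gamma response, lay at -0.58, -0.45, -0.19 and -0.55 under compound 6, against -1.17, -1.11, -0.64 and -1.16 on vehicle. It was higher on all 4 letters and the groups did not overlap (0.58 ± 0.20, adjusted p = 0.041). A dim second probe gave -0.01. The call was lost without any 1 of compound 6 D, E, F or G or vehicle D, E or G (adjusted p 0.0501 to 0.121). Parp14 lay at 0.37, 0.48, 0.75 and 0.44 under compound 6, against -0.33, -0.44, 0.46 and 0.01 on vehicle (0.58 ± 0.17, adjusted p = 0.020). Vehicle F overlapped the compound 6 values, and adjusted p was 0.0685, 0.0687 and 0.0814 without compound 6 F, vehicle D or vehicle E. Ifi35 lay at 1.88, 1.81, 1.61 and 2.06 under compound 6, against 2.04, 2.05, 2.08 and 2.17 on vehicle. It was lower on all 4 letters (-0.24 ± 0.09, adjusted p = 0.044) with overlap at array G, and without any 1 of compound 6 D, E or F or the 4 vehicle arrays its adjusted p was 0.0509 to 0.171. The number of members that passed fell from 5 to 3 without compound 6 D or E or vehicle G, and to 2 without compound 6 F, vehicle D or vehicle E.

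Ifit1 again had the largest difference that did not pass, at -1.34, -1.21, -1.37 and -0.96 under compound 6, against -1.87, -1.95, -1.82 and -2.01 on vehicle (0.69 ± 0.46, adjusted p = 0.29, and 9.173e-05 with the letter as a block). The groups did not overlap. Oasl1 (0.46, adjusted p = 0.31), Dtx3l (-0.33, 0.10) and Irf7 (-0.30, 0.35) passed with the block too, as did Zbp1 (0.28), Tap1 (-0.29) and Ifih1 (-0.25), the sensor MDA5. Ifi44 also passed with the block, but it was not well above background on any of these 8 arrays, so no fold is given. Slides that held both groups gave Iigp1 differences of 0.50, 0.51 and 0.34 and Parp14 differences of 0.90, 0.74 and 0.30, while the median over members was 0.03, 0.21 and -0.10.

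Markers of other cells moved with compound 6. Of 15 tested leukocyte markers 7 rose, namely Csf1r (1.05), Cd4 (0.69), Itgam (0.55), Laptm5 (0.25), Cd3e (0.22), Coro1a (0.18) and Cd68 (0.17). The summed Cy3 signal of the 21 leukocyte markers was 44781 to 69836 under compound 6, against 27907 to 53286 on vehicle D to G. Of 8 tested fibroblast markers 4 rose, and their summed signal was 7064 to 8262, against 6245 to 6840, with Pdgfra and Lum well above background on 0 arrays. Of 4 tested endothelial markers 1 rose and 1 fell, with Cdh5 and Cldn5 well above background on 0 arrays, and of 12 epithelial markers 2 rose and 1 fell. Their part in the changes of the interferon-stimulated genes was not tested.

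**Figure D5:**
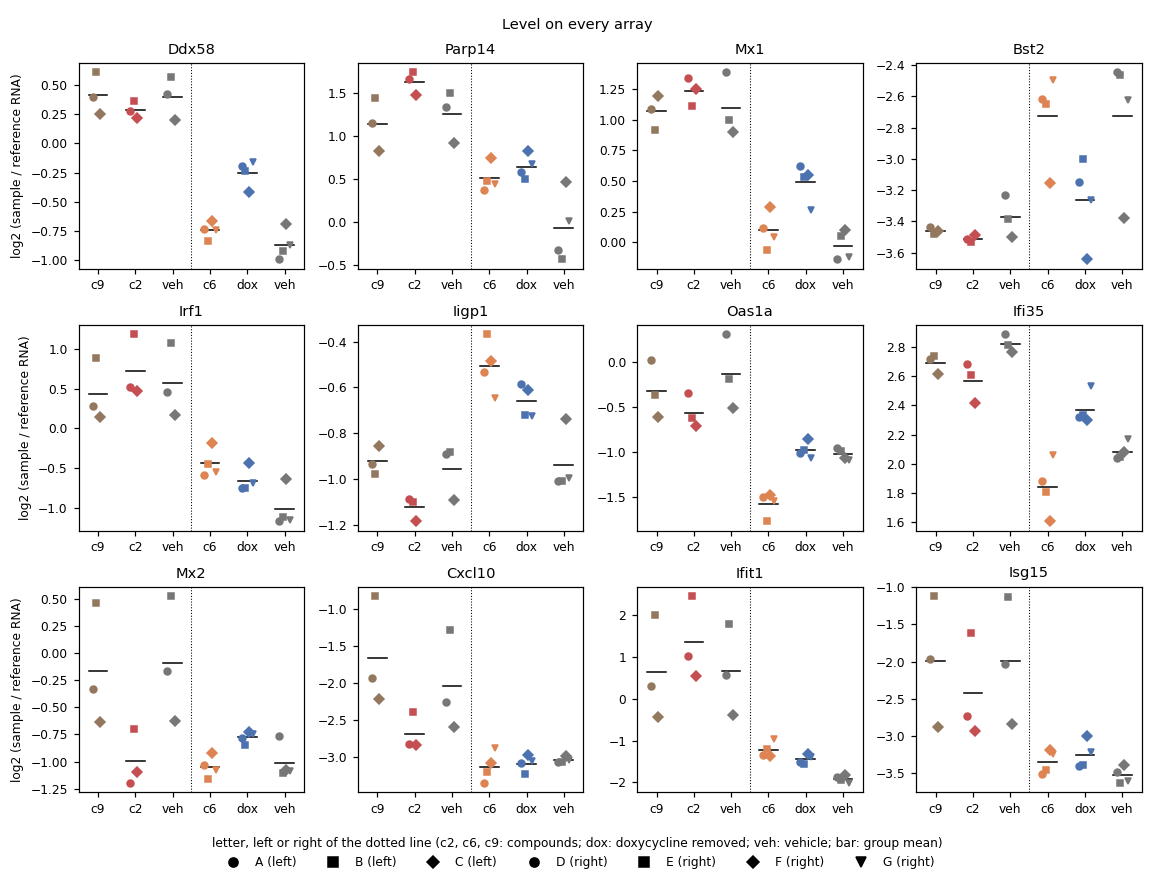
Level (log2 sample over reference, vertical axis) of 12 members on every array, by group, with the letter of the array as marker and the group mean as a bar. Ddx58 and Mx1 are higher after doxycycline removal than on vehicle D to G, Oas1a is lower under compound 6, and Mx2 and Cxcl10 are lower under compound 2 than under compound 9.

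Compound 6 was also set against doxycycline removal directly. Oas1a, Ifi35, Dtx3l, Ddx58, Parp9 and Mx1 were lower under compound 6, Bst2 was higher, and 28 did not pass. Of the members 2.86% were higher and 17.1% lower, beside 7.35% and 7.74% of all genes. The median difference was -0.09 over members and 0.02 over all genes. With the letter as a block 2 members were higher and 11 lower, beside 19.5% and 14.7% of all genes.

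Ddx58 lay at -0.73, -0.83, -0.66 and -0.74 under compound 6, against -0.19, -0.24, -0.42 and -0.16 after removal (-0.49, limma adjusted p = 0.0013). The groups did not overlap, and the second probe gave -0.17. Ifi35 differed by -0.53 (adjusted p = 0.00038) and Oas1a by -0.60 (adjusted p = 0.0083), and these 3 calls held in every alternative tried. Dtx3l lay at 0.05, 0.15, 0.08 and 0.16 under compound 6, against 0.61, 0.53, 0.73 and 0.65 after removal (-0.52, adjusted p = 0.020). The groups were far apart, yet adjusted p was 0.0527 without compound 6 D and 0.0556 without removal F. Other probes of Dtx3l gave smaller differences of -0.26 and -0.18. Parp9 differed by -0.43 (adjusted p = 0.0093), where its second probe gave 0.05. Mx1 lay at 0.12, -0.06, 0.28 and 0.04 under compound 6, against 0.63, 0.53, 0.55 and 0.26 after removal, with overlap at 1 array each (-0.40, adjusted p = 0.020). It had an adjusted p of 0.0507 to 0.0708 without compound 6 E or removal D, E or F. Bst2 lay at -2.62, -2.65, -3.15 and -2.50 under compound 6, against -3.15, -3.00, -3.64 and -3.26 after removal (0.54, adjusted p = 0.049). The groups overlapped at array F of compound 6, and without any 1 of compound 6 D, E or G or removal D, F or G the adjusted p was 0.0628 to 0.16. The number of members that passed fell from 7 to 4 without removal F. With the letter as a block Irf1 (0.22) was also higher, and Irf7 (-0.55), Irgm1 (-0.39), Stat2 (-0.35), Ifih1 (-0.29) and Tap1 (-0.25) were lower.

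Under compound 2, 1 member fell and 0 rose against vehicle A to C, beside 2.02% of all genes that fell and 3.32% that rose. The member was Mx2, an interferon-induced GTPase. Genes that rose made up 62.1% of all genes that passed, and 48.8% to 52% under 3 other scalings. With the letter as a block 2 members were higher and 12 lower, beside 9.43% and 8% of all genes, so the result for this compound depends on whether arrays with the same letter are compared. The median change was -0.14 over members, with 9 above 0 and 26 below, and 0.003 over all genes.

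Mx2 lay at -1.20, -0.70 and -1.10 under compound 2, against -0.17, 0.52 and -0.63 on vehicle A to C. The groups did not overlap, and Mx2 was 1.87-fold lower (-0.91 ± 0.24, limma adjusted p = 0.036, and 0.0001 with the letter as a block). Without compound 2 A or C the adjusted p was 0.144 or 0.114, and without vehicle A or B it was 0.0814 or 0.16. The number of members that passed fell to 0 without any 1 of these 4 arrays and was 3 without vehicle C.

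The other changes under compound 2 passed with the block alone. Cxcl10 lay at -2.82, -2.39 and -2.84 under compound 2, against -2.26, -1.29 and -2.59 on vehicle A to C. It was lower on all 3 letters, although the ranges overlapped (-0.64, adjusted p = 0.24 without the block and 0.0043 with it). Usp18, which strips Isg15 from proteins and dampens receptor signalling, lay at -3.72, -3.53 and -3.80 under compound 2, against -2.74, -2.70 and -3.62 on vehicle (-0.66, 0.13 without the block and 0.0038 with it). Ifit3 lay at -0.69, -0.30 and -0.68 under compound 2, against 0.13, 0.48 and -0.36 on vehicle (-0.64). The drop was on all 3 letters in each of these genes. Xaf1 (-0.65, adjusted p 0.29 without the block), Irf7 (-0.51), Stat2 (-0.45), Oas1a (-0.43), Isg15 (-0.43), Ifih1 (-0.36), Tap1 (-0.26) and Ifi35 (-0.25) were lower in the same way, and a second Xaf1 probe gave 0.01. Ifit1 went the other way, at 1.03, 2.45 and 0.55 under compound 2 against 0.57, 1.79 and -0.38 on vehicle, higher on all 3 letters (0.68 ± 0.53, adjusted p = 0.57 without the block and 0.0010 with it). Parp14 was also higher (0.38). On the slide that held arrays A and B the median difference over members was -0.20, and on the slide that held array C it was -0.02. Of the cell-type markers under compound 2, 2 of 12 epithelial, 1 of 8 fibroblast and 1 of 4 endothelial markers rose and 0 of 15 leukocyte markers passed, and their part in the result was not tested.

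Under compound 9 none of the 35 members passed against vehicle A to C with limma, with or without the block, and 0 had an unadjusted p under 0.05. Among all genes the share that passed was 0%, and 0.00469% with the block, while 250 genes (1.17%) had an unadjusted p under 0.05. The median change was -0.05 over members and -0.01 over all genes, and the changes ran from -0.34 to 0.39. The largest were Cxcl10 at 0.39 ± 0.29, with a 95% interval of -0.222 to 0.993, and Ifih1 at -0.34 ± 0.16, with -0.683 to 0.001. Stat2 (-0.23) and Gbp2 (0.19) followed. Cxcl10 lay at -1.93, -0.83 and -2.22 under compound 9, against -2.26, -1.29 and -2.59 on vehicle. It was higher on each letter, and the ranges of the groups overlapped.

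The 3 compounds were compared in 3 pairs at the same dose and time, the pairs with compound 6 through each compound's own vehicle arrays. Between compounds 9 and 2, Cxcl10 was 2.03-fold higher under compound 9 (1.02 ± 0.29, 95% interval 0.415 to 1.629, limma adjusted p = 0.049), and 1 of 35 members was higher and 0 lower, beside 1.5% and 3.32% of all genes. Its levels were -1.93, -0.83 and -2.22 under compound 9, against -2.82, -2.39 and -2.84 under compound 2. The groups did not overlap. Higher genes made up 31.1% of all genes that passed, and 45.8% and 43.8% with Agilent's own ratios and with Cy3 alone. A dim second probe of Cxcl10 gave 0.09, and without any 1 of compound 9 A or B or compound 2 A, B or C the adjusted p was 0.0518 to 0.228. The number that passed fell to 0 without compound 9 A or B or compound 2 A or C, and was 4 without compound 9 C. With the letter as a block 7 members were higher under compound 9 and 3 lower, beside 6.25% and 9.74% of all genes. The 7 were Cxcl10, Mx2 (0.83), Ifit3 (0.68), Usp18 (0.51), Xaf1 (0.47), Irf7 (0.44) and Isg15 (0.44), and the 3 were Ifit1 (-0.72), Parp14 (-0.49) and Irf1 (-0.29). Mx2 lay at -0.33, 0.46 and -0.64 under compound 9, against -1.20, -0.70 and -1.10 under compound 2, with no overlap and an interval of 0.319 to 1.338 (adjusted p = 0.057 without the block).

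Between compounds 6 and 2, 1 member was higher and 0 lower, beside 0.347% and 0.22% of all genes. Higher genes made up 61.2% of all genes that passed, and 74% with Cy3 alone and 76.6% in the series matrix. This member was Iigp1, whose change was 0.60 ± 0.12 greater under compound 6 (95% interval 0.353 to 0.84, limma adjusted p = 0.023). Its levels were -1.09, -1.10 and -1.18 under compound 2, against -0.89, -0.88 and -1.09 on vehicle A to C. Mx2 (0.87, interval 0.193 to 1.542, adjusted p = 0.20), Usp18 (0.74, 0.069 to 1.417), Isg15 (0.61, -0.488 to 1.702) and Ifit3 (0.56) did not pass. Between compounds 6 and 9, 1 member was higher and 0 lower, beside 3.86% and 2.68% of all genes. It was again Iigp1 (0.40 ± 0.12, interval 0.153 to 0.64, adjusted p = 0.048), at -0.93, -0.98 and -0.86 under compound 9. Ifit1 (0.72, -0.738 to 2.187), Irf1 (0.71, 0.073 to 1.354, adjusted p = 0.18), Parp14 (0.69, 0.137 to 1.247, adjusted p = 0.13) and Oasl1 (0.57, -0.422 to 1.556) did not pass. A dim second Iigp1 probe gave 0.01 against compound 2 and 0.04 against compound 9. Both Iigp1 calls were lost without single arrays. Against compound 2 this held for compound 2 A, B or C, compound 6 E and vehicle A, B, D, E or G (adjusted p 0.0502 to 0.079). Against compound 9 it held for compound 9 A, B or C, compound 6 D, E or F and vehicle A, B, D, E or G (0.0571 to 0.122), and 2 members passed without vehicle F. These pairs also span the 2 letter sets, which differ in scan and slides.

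Several members differed between the vehicle sets and did not pass against vehicle without the letter as a block. Irf9, the DNA-binding partner of Stat2, lay at 0.81, 0.84 and 0.33 under compound 9 and 0.64, 0.78 and 0.43 under compound 2, against 0.87, 0.89 and 0.53 on vehicle A to C. In the D to G set it lay at 0.09, 0.17, 0.18 and 0.08 under compound 6 and 0.26, 0.23, 0.26 and 0.29 after removal, against 0.07, -0.02, 0.34 and 0.04 on vehicle. The vehicle sets differed by 0.66 (limma adjusted p = 0.00016), while its 4 changes against vehicle ran from -0.14 to 0.15 and did not pass with or without the block. Isg15 lay at -1.96, -1.12 and -2.89 under compound 9 and -2.73, -1.61 and -2.93 under compound 2, against -2.03, -1.13 and -2.84 on vehicle A to C. Array C was the lowest and array B the highest in each of the 3 groups. With the block Isg15 passed under compound 2 and after removal. In the D to G set Isg15 lay at -3.51, -3.45, -3.19 and -3.25 under compound 6 and -3.41, -3.39, -3.01 and -3.22 after removal, against -3.48, -3.63, -3.39 and -3.60 on vehicle, a range that sits below the A to C arrays.

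Irf7 lay at -0.69, -0.80, -0.18 and -0.23 under compound 6 and -0.22, -0.20, 0.46 and 0.24 after removal, against -0.27, -0.42, 0.33 and -0.35 on vehicle D to G. These ranges overlapped. Ifih1 lay at 1.26, 1.22, 1.06 and 1.13 under compound 6 and 1.40, 1.40, 1.49 and 1.53 after removal, against 1.43, 1.41, 1.44 and 1.38 on vehicle D to G. The compound 6 arrays were below the other 8 in that set, but the difference passed with the letter as a block alone (adjusted p = 0.22 without it). Irgm1 lay at -1.30, -1.36, -2.15 and -1.44 after removal, against -1.68, -1.78, -2.43 and -1.87 on vehicle D to G. It was higher on each letter, and array F was the lowest in both groups. Igtp, a related GTPase, and Dhx58 (LGP2, a regulator of the RNA sensors) did not pass, with Igtp between -0.29 and 0.04 and Dhx58 between -0.12 and 0.04 over the 4 treatments. The changes of Oas2 and Oasl2 ran from -0.17 to 0.21 over the 4 treatments, and neither passed with or without the block. Rsad2 gave 0.01 under compound 9 and -0.11 under compound 2 and did not pass.

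The dimmest tested probes were those of Ddx60, Ifit2 and Gbp2, and none of them passed against vehicle in any of the 4 treatments. Ddx60 lay at 0.23, 0.69 and 0.08 under compound 9 and 0.18, 0.51 and -0.10 under compound 2, against 0.48, 0.78 and 0.02 on vehicle A to C. It was not well above background on array C in any of these groups. Ifit2 lay between -2.01 and -1.34 on the 6 compound arrays A to C, against -2.12 to -1.42 on vehicle. Gbp2 lay between -2.51 and -1.95 under both compounds, against -2.58 to -2.39 on vehicle. All 3 were not well above background on the 12 arrays D to G, as was Ifi44, and Rsad2 was well above background on 2 of these 12 and Cxcl10 on 1. These 6 entered the test through the A to C arrays, and no fold is given for them between D to G groups.

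The members were also split by the ISRE core, without a test of the difference. Members without a promoter in the RefSeq table are in neither group, among them Parp14, Mx1, Parp9, Iigp1 and Mx2. After doxycycline removal the 15 tested members with the core had a median change of 0.17 (2 rose and 1 fell) and the 11 without had 0.16 (1 rose). Between the vehicle sets the medians were 0.99 (13 higher, 1 lower) and 0.91 (8 higher). Among all genes 7.27% rose and 13.4% fell after removal, and 25% were higher and 28.4% lower between the vehicle sets. Rsad2, Cxcl10 and Ddx60, which hold the core, passed the filter on low signal through letters A to C, so a difference was favoured for them. The medians were -0.23 with the core and -0.14 without it under compound 2, -0.03 and -0.09 under compound 9, and 0.02 and 0.02 under compound 6. Between treatments they were 0.13 and 0.12 for compound 9 minus 2, 0.24 and 0.17 for compound 6 minus 2, 0.09 and -0.004 for compound 6 minus 9, and -0.14 and 0.00 for compound 6 minus removal. These are descriptions of the promoter windows above.

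Of 50 other tested genes of the pathway, 7 rose and 1 fell after doxycycline removal, 10 rose and 4 fell under compound 6, 0 rose and 1 fell under compound 2, and 0 passed under compound 9. Among all genes 7.27% rose and 13.4% fell after removal, and 11.4% rose and 13.5% fell under compound 6. Under compound 2, 3.32% rose and 2.02% fell, and under compound 9, 0% passed. Between the vehicle sets 16 of the 50 were higher and 4 lower in A to C, beside 25% and 28.4% of all genes. Receptor chains were among the pathway genes that rose. After removal these were Il28ra (0.46, limma adjusted p = 0.015), a chain of the type III receptor, Ifngr1 (0.37, 0.0033), Ifnar1 (0.31, 0.010), a chain of the type I receptor, and Il10rb (0.24, 0.047), of 6 receptor genes tested. Under compound 6, Ifnar1 (0.44, 0.00062), Ifngr1 (0.40, 0.0014) and Il10rb (0.24, 0.039) rose. Ifnar1 and Ifngr1 were lower under compound 9 than under compound 2 (-0.44 and -0.38) and their change was greater under compound 6 than under compound 9 (0.61 and 0.50). Between the vehicle sets Ifnar1 (1.57), Il28ra (0.95), Il10rb (0.52) and Ifngr2 (0.20) were higher in A to C.

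Among the kinases, Jak2 rose after removal (0.40, limma adjusted p = 0.026) and was lower under compound 6 than after removal (-0.52). Jak1 fell under compound 6 (-0.38, adjusted p = 0.0024), but did not pass between compound 6 and removal. Irf8, a factor best known from myeloid cells, fell after removal (-0.51, adjusted p = 0.025), under compound 6 (-1.31, 1.195e-05) and under compound 2 (-0.80, 0.011). Its level was higher under compound 9 than under compound 2 (0.86, 0.0073). Among regulators and sensors under compound 6, Irf5 (0.34), the adaptor Mavs (0.38), Tlr7 (0.29) and Tlr9 (0.27) rose and the phosphatase gene Ptpn2 (-0.38) fell. Psmb8 (0.20) and Cd74 (0.31) rose and Tap2 (-0.37) fell among the antigen-presentation genes. Of 9 interferon genes listed, 8 had a probe and 4 were tested, and Ifnk rose under compound 6 (0.53, adjusted p = 0.0092). Of the genes of the Mediator kinase module, Cdk19 fell under compound 6 (-0.32, adjusted p = 0.011).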

How the data were processed

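Total RNA of 21 organoid samples was labelled with Cy3 and hybridised with Universal Mouse Reference RNA in Cy5, without dye swaps, per the labels. Per the file headers, the authors' deposited scanner tables come from Agilent Feature Extraction and hold spot and background intensity per channel as scanned, a log10 ratio of reference over sample after Agilent's background and dye correction, and probe positions on mm9. The authors also deposited a series matrix of log2 values. Set against the scanner ratios (r 0.9245 to 0.95 per array) these ran as sample over reference, with column medians of -0.00743 to 0.089, but their centring and method are not given in the sources used here.

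Intensities were corrected with normexp (offset 50) and loess within each array, without 3671 control spots of 62976. The brightest probe by mean Cy3 stood for each gene, and a gene was kept where its Cy3 signal was well above background on 3 or more arrays. limma 3.58.1 (R 4.3.3) was fitted to all 21 arrays with group and letter set, with Benjamini-Hochberg adjustment over 21320 genes. In simulated data the fit recovered known changes of 2-fold or more. No member changed by 2-fold against vehicle in any treatment, and recovery of smaller changes was not tested. The groups come from the labels. Letters were taken to pair samples because all 21 same-letter pairs of arrays deviated together (r 0.209 to 0.749, median 0.53, against -0.18 for other pairs). In the A to C set all C arrays shared 1 slide and the A and B arrays another, so letter and slide are not fully separable there. The highest correlation between 2 arrays was 0.996. No cutoff for repeats of 1 library was set, so whether any arrays were such repeats was not tested. Members past the threshold were named, up to 8 by size in each comparison, then up to 4 that did not pass, with array values for the 3 brightest and 3 dimmest tested genes. The members, the gene lists and the naming rule were chosen with earlier results of these data known. Alternatives were 3 other scalings, 2 other probe filters, the mean of a gene's probes, the compared groups alone, the letter or slide as a block, and single arrays or letter F left out. The slide as a random block for the vehicle sets, the runs without letter B, the other scalings with the letter block, and the vehicle-set count without dim members were chosen after seeing the data.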

Additional observations from a re-analysis of the deposited data

Results flagged for a closer look

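In 9 of 105 groups of 4 arrays, 1 array of a member stood apart, with a gap to its nearest neighbour that took up more of the group's whole range than Dixon's 95% critical value. For independent groups of normally distributed values, chance gives this in about 1 of 20. These groups share the same arrays, and arrays with the same letter deviated together. The share over all genes was not computed, so the count does not set the members apart. Vehicle F was the highest array for Iigp1 (gap 0.944 of the range), Oasl1 (0.949) and Irf1 (0.897), and vehicle D was the highest for Mx2 (0.927). After doxycycline removal, array F was the highest for Oas2 (0.913) and the lowest for Irgm1 (0.834), array G was the highest for Ifi35 (0.878) and array D the highest for Xaf1 (0.922). Under compound 6, array E was the lowest for Ddx60 (0.862), which was not well above background on these arrays.

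The change of Iigp1 against vehicle differed between compounds. It was 0.60 greater under compound 6 than under compound 2, and 0.40 greater under compound 6 than under compound 9, by limma's test of the difference itself (adjusted p = 0.023 and 0.048). A dim second probe gave 0.01 and 0.04, so both results rest on the brightest probe. The pairs span both letter sets, and letter set, slide and scan cannot be told apart.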

How the results depend on the processing

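None of the counts and of the 32 single-gene results that were recomputed changed direction under the alternatives, but other probes of Xaf1 and Zbp1 turned the difference between the vehicle sets (-0.23 and -0.11) and the member median under compound 6 was below 0 on 1 of 3 slides (-0.10). The number of members that passed between the vehicle sets stayed within 1.5 times of 29 in all alternatives (23 to 29 with single arrays left out), and that of compound 9 was 0 in all. With the letter as a replicate block the numbers were 16 after doxycycline removal (8 without the block), 14 under compound 2 (1), 13 under compound 6 (5), 10 between compounds 9 and 2 (1) and 13 between compound 6 and removal (7). With the block and Agilent's ratios they were 19, 14, 12, 12 and 15 in the same order, with the block and Cy3 alone 16, 16, 10, 10 and 15, and with the block and the series matrix 19, 12, 13, 9 and 16. With the block but without letter F they were 16 after removal, 10 under compound 6 and 13 between these, and without letter B 9 under compound 2 and 6 between compounds 9 and 2. With the block the shares of all genes also rose. Higher and lower shares went from 7.27% and 13.4% to 15.3% and 23.8% after removal. Under compound 2 they went from 3.32% and 2.02% to 9.43% and 8%. Under compound 6 they went from 11.4% and 13.5% to 17.5% and 23.9%. Shares of all genes are not given for the other settings, so those counts of members alone do not set the members apart. Fitting the compared groups alone gave 5 after removal, 0 under compound 2, 0 for each pair of compounds and 11 between compound 6 and removal. The slide as a block gave 6 under compound 2, 4 between compounds 9 and 2 and 0 between compounds 6 and 9. Between compounds 9 and 2 the number was 0 with Agilent's ratios, Cy3 alone, the series matrix, no filter or a filter on all arrays, and 2 without letter B. Between compounds 6 and 2 it was 0 with Agilent's ratios or Cy3 alone. Between compounds 6 and 9 it was 0 with Agilent's ratios, Cy3 alone, the series matrix or no filter, and 2 without letter F. Compound 6 gave 3 with Cy3 alone or no filter, and compound 2 gave 0 with probes well above background on all arrays, where fewer genes are tested. The cause of the other differences was not tested. Leaving out single arrays gave 3 to 8 members after removal, 0 to 3 under compound 2, 0 to 0 under compound 9, 2 to 5 under compound 6, 0 to 4 between compounds 9 and 2, 0 to 1 between 6 and 2, 0 to 2 between 6 and 9, and 4 to 7 between compound 6 and removal.

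Calls of single genes that did not hold included Bst2 after removal (adjusted p = 0.165 with Cy3 alone, at most 0.165 in all alternatives), Iigp1 after removal (0.154 with Cy3 alone), Parp9 (0.137 with the mean of its probes) and Irf1 under compound 6 (0.0762 with Cy3 alone). Cxcl10 between compounds 9 and 2 had 0.196 with Agilent's ratios and 0.365 in the series matrix. Iigp1 had 0.242 between compounds 6 and 2 and 0.608 between 6 and 9 with Cy3 alone. Sizes moved by over 1.5 times in Agilent's ratios or the series matrix for Mx2 under compound 2 (to -1.58), Iigp1 between compounds 6 and 2 (to 1.05), Cxcl10 between compounds 9 and 2 (to 1.80) and Mx1 between compound 6 and removal (to -0.82). With the mean of its probes Parp9 gave 0.17 after removal and -0.19 between compound 6 and removal. Signal over background limits the 6 members that were dim in letters D to G, and 3 or 4 arrays a group limit all others.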
